A study of Mus musculus with 12 samples.

Results

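The interferon response genes described here were 44 mouse genes that type I or type II interferon induces in many cell types, chosen by symbol. Each symbol matched 1 Ensembl gene of the 55385 in the deposited count table, and all 44 were among the 15905 genes that passed the low-count filter and were tested. The study sequenced messenger RNA libraries made from total RNA of freshly dissected hippocampus of adult mice, taken from the hemisphere opposite to one used for proteomics. The 12 libraries formed 4 groups of 3: Kcnip3 KO-5xFAD (5xFAD transgenes with both Kcnip3 alleles deleted), 5xFAD (transgenes with Kcnip3 intact), Kcnip3 KO (Kcnip3 deleted, no transgenes) and WT. Libraries are named by group and replicate number, and values are given in the order 1, 2 and 3. Age within adulthood, sex, the background strain and the number of animals per library are not stated in the labels, so p-values measure the spread between these libraries, which may be technical in part.

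Kcnip3 encodes the calcium-binding protein known as DREAM or calsenilin, which acts both as a transcriptional repressor and as a partner of potassium channels. The 5xFAD line carries mutant human transgenes of familial Alzheimer's disease under the mouse Thy1 promoter and accumulates amyloid in the brain. Interferons signal through receptor-bound JAK kinases to STAT proteins. STAT2 and IRF9 are components of the complex ISGF3, which binds interferon-stimulated response elements (ISREs) in the promoters of antiviral genes and switches them on. In brain tissue with amyloid, microglia are known to take up such a program in a fraction of cells, and endothelial cells, astrocytes and neurons can also express these genes. In bulk tissue, more cells of a type and more RNA per cell cannot be told apart.

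Libraries held 7664407 to 11310714 assigned reads and 21673 to 23499 detected genes, and 3 reads corresponded to 0.265 to 0.391 CPM (read counts scaled to 1000000 per library). Marker levels went against 3 labels. Thy1, whose promoter drives the transgenes, was at 3381, 926 and 2592 CPM in the Kcnip3 KO-5xFAD libraries and 2869.8, 4236 and 2949.5 CPM in those of 5xFAD, against 749, 792 and 868 CPM in those of Kcnip3 KO and 747, 887 and 2277 CPM in those of WT. The library labelled WT 3 was thus above the other WT libraries and the library labelled Kcnip3 KO-5xFAD 2 below the others of its group, and the microglial genes Trem2 and Cst7 showed the same 2 exceptions. Kcnip3 itself was at 84.9, 68.7 and 70.1 CPM in the Kcnip3 KO-5xFAD libraries, 139, 156 and 138 CPM in those of 5xFAD and 71.4, 63.4 and 125 CPM in those of Kcnip3 KO, against 159.9, 158 and 162 CPM in WT, so the library labelled Kcnip3 KO 3 lay closer to the Kcnip3-intact libraries than to its own group. The first 2 are called the discordant libraries below, and each comparison is given with and without them. Summed markers of hippocampal neurons were at 408 to 719 CPM in every library.

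The members' promoters were searched for the elements through which interferon signalling acts. RefSeq promoters (assembly GRCm38.p6, 250 bases before to 50 after the start) were matched for 33 of the 44. A gene with more than 1 promoter counted if any of them held the element. Of these 33 genes, 19 (57.6%) held the ISRE core GAAANNGAAA on either strand (TTTCNNTTTC on the other), against 1079 of 27025 genes with promoters of that length (3.99%). A further interferon-stimulated list, 79 genes that are not members, held the core in 30 of 61 genes with a matched promoter (49.2%). The shorter element TTCNNNGAA, the core of sites bound by STAT dimers, was found for 8 of the 33 members (24.2%), against 9.55% of all genes with promoters. In the further list it was in 8 of 61 (13.1%). The letters of this element do not contain the ISRE core, though sites can overlap. Windows around the first match are printed below for a part of the members with the core. Letters are in lower case with the ISRE cores in capitals, on the strand of the gene, so that runs of cores can be compared.
Isg15: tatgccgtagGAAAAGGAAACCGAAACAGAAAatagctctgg
Ifit3: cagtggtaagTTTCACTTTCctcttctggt
Ifit3b: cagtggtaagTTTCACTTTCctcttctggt
Stat2: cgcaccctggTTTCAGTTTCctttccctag
Bst2: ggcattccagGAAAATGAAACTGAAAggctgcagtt
Cxcl10: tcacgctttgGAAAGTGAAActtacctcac
Irgm1: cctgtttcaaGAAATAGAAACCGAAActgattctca
Gbp7: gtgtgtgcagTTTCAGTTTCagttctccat
These windows lie in the promoters of Isg15 (chr4:156200769-156201068, minus strand), Ifit3 (chr19:34583279-34583578, plus strand), Ifit3b (chr19:34607707-34608006, plus strand), Stat2 (chr10:128270248-128270547, plus strand), Bst2 (chr8:71537423-71537722, minus strand), Cxcl10 (chr5:92348840-92349139, minus strand), Irgm1 (chr11:48871371-48871670, minus strand) and Gbp7 (chr3:142530086-142530385, plus strand). The match began at position -78 from the start of Isg15, -156 of Ifit3, -188 of Ifit3b and -213 of Cxcl10. In members not printed, it began at -120 of Rsad2, 3 of Ifitm3 and 19 of Eif2ak2, the last 2 after the start. Isg15 had 3 overlapping cores in one run, Bst2 and Irgm1 had 2, and Ifit3 and Ifit3b shared the same window letter for letter. The match is a description of the letters and not of binding. The 19 members with the core had a median log2 fold change of 1.27 in Kcnip3 KO-5xFAD against Kcnip3 KO, the 14 without it 1.05, and the 11 without a matched promoter 1.71. In 5xFAD against WT the medians were 0.46 with the core, 0.58 without it and 0.92 without a matched promoter.

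Per length, the members differed widely in level. By TPM (transcripts scaled to 1000000 per library, from the authors' deposited log2 TPM, averaged over the 12 libraries) the order began with Ifi27 at 162 TPM, Ifitm3 at 119 TPM, Lgals3bp at 72.6 TPM, Bst2 at 55.0 TPM and Ifi27l2a at 52.1 TPM. Ifit3 at 31.4 TPM, Isg15 at 26.4 TPM and Stat2 at 21.3 TPM came next, and Ifi44 was lowest at 0.748 TPM. The remaining 35 members lay between 0.932 and 12.97 TPM. Most of the list was thus expressed at low levels in this tissue.

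Column by column, the members moved together. Each member's log2(CPM + 0.5) was set against its own mean over the 12 libraries, and the median over the 44 members was taken in each library. That median was 1.33, -0.47 and 0.36 in Kcnip3 KO-5xFAD, 0.77, -0.20 and 0.40 in 5xFAD and -0.53, -0.51 and -0.62 in Kcnip3 KO, against 0.17, -0.32 and -0.25 in WT, while the same median over all tested genes ran from -0.016 to 0.0082. Kcnip3 KO-5xFAD 1 stood at the top, with all 44 members above their own mean and 38 of 44 at their highest level of the 12 libraries, as were 7.78% of all genes there. The lowest values were in the 3 Kcnip3 KO libraries and the library labelled Kcnip3 KO-5xFAD 2. The 2 transgenic groups overlapped with WT through the libraries 5xFAD 2 and labelled Kcnip3 KO-5xFAD 2.

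**Figure D1:**
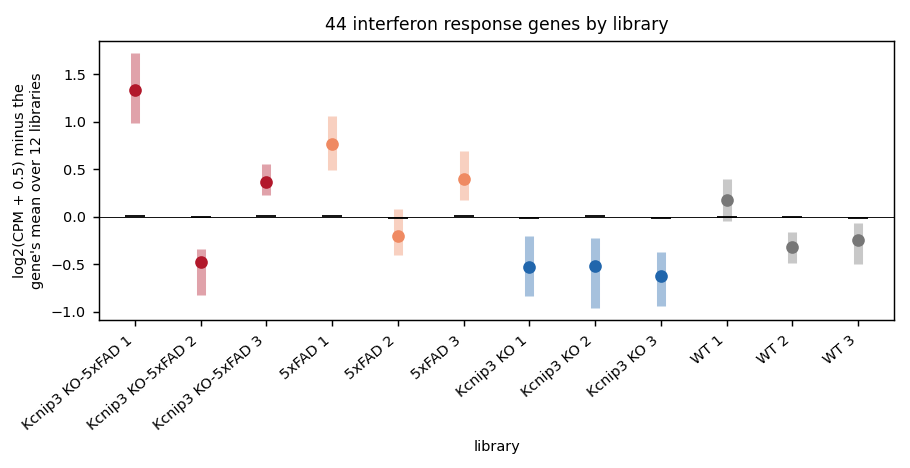
Each point is the median over the 44 members of log2(CPM + 0.5) minus the gene's mean over 12 libraries (y axis), for the library on the x axis; thick bars span the quartiles over members and black dashes mark the median over all tested genes. Kcnip3 KO-5xFAD 1 sits at 1.33 and the library labelled Kcnip3 KO-5xFAD 2 at -0.47, and the 3 Kcnip3 KO libraries lie between -0.62 and -0.51.

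The spread between libraries of one group was wider for these genes than for most. The median coefficient of variation in Kcnip3 KO-5xFAD was 66.0% over the members and 11.1% over all tested genes. In 5xFAD it was 39.1% over the members and 13.8% over all genes, in Kcnip3 KO 22.8% and 13.1%, and in WT 29.3% and 11.9%. Over the 12714 genes within the members' range of mean CPM it was 12.8% in Kcnip3 KO-5xFAD, 15.1% in 5xFAD, 14.8% in Kcnip3 KO and 13.4% in WT. Those genes were not matched to the members' mostly low levels, and the part of counting noise in the spread was not tested. In Kcnip3 KO-5xFAD, library 1 was the highest of its group for 42 members (32.5% of all genes) and the library labelled 2 the lowest for 43 (35.3% of all genes). In 5xFAD, library 1 was the highest for 38 members (40.4% of all genes) and library 2 the lowest for 42 (40.7%). WT 1 was the highest of the WT libraries for 35 members (31.5%).

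The spread was also present between libraries whose transgene markers were those of their labels. Kcnip3 KO-5xFAD 1 exceeded Kcnip3 KO-5xFAD 3 for 42 of 44 members, by a median ratio of 1.99, and 5xFAD 1 exceeded 5xFAD 2 for 43 of 44, by a median ratio of 2.11. The library 5xFAD 2 had the highest Thy1 (4236 CPM), the highest Trem2 (251 CPM) and the highest summed microglial markers (745 CPM) of the 12. In that library 12 of the 44 members were below the range of the 3 libraries labelled WT, 23 were within it and 9 above, where 38.3% of all genes were below and 37.3% above. In 5xFAD 1, 38 members were above the WT range, where 27.8% of all genes were, and in 5xFAD 3, 30 were, where 34.0% of all genes were.

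The members that carry or amplify the signal were Stat2, Irf9 and Irf7. Stat2, a component of ISGF3, was at 58.1, 29.9 and 45.6 CPM in the Kcnip3 KO-5xFAD libraries, 48.4, 37.01 and 37.4 CPM in those of 5xFAD and 33.3, 39.6 and 32.8 CPM in those of Kcnip3 KO, against 34.7, 30.8 and 35.2 CPM in WT. The 5xFAD libraries were all above the WT libraries, while the Kcnip3 KO-5xFAD libraries spanned the whole range. Irf9, the DNA-binding component of ISGF3, and Irf7, which amplifies interferon production, also had their highest level in Kcnip3 KO-5xFAD 1, at 39.0 CPM for Irf9 and 28.9 CPM for Irf7.

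Among the IFIT proteins, which bind foreign RNA, Ifit3 was at 50.7, 9.001 and 16.8 CPM in the Kcnip3 KO-5xFAD libraries, 28.1, 11.2 and 18.3 CPM in those of 5xFAD and 9.93, 10.6 and 8.40 CPM in those of Kcnip3 KO, against 16.3, 11.4 and 8.98 CPM in WT. Kcnip3 KO-5xFAD 1 was the highest of the 12, and each group overlapped with the one it was compared with. Ifit3 and Ifit3b share 51.2% and 45.0% of their 50-base words with other genes, each chiefly with the other, so counts of the 2 are uncertain. Ifit1 and Ifit2 ranged from 1.33 to 12.4 CPM and from 3.69 to 13.6 CPM over the 12 libraries, again with the top in Kcnip3 KO-5xFAD 1. Isg15, a ubiquitin-like protein attached to others during the response, was at 14.6, 2.11 and 7.37 CPM in the Kcnip3 KO-5xFAD libraries, 9.40, 4.82 and 5.43 CPM in those of 5xFAD and 3.45, 2.90 and 1.38 CPM in those of Kcnip3 KO, against 7.23, 3.62 and 3.45 CPM in WT. The Kcnip3 KO libraries overlapped with WT only at 3.45 CPM. Usp18, which removes ISG15 and restrains receptor signalling, ranged from 1.45 to 10.9 CPM, with its highest value in Kcnip3 KO-5xFAD 1. Herc6, a ligase for ISG15 in mouse, differed: its highest library was 5xFAD 1 at 6.73 CPM, and the library labelled Kcnip3 KO 3 reached 6.56 CPM.

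The 8 RNA and DNA sensors and OAS enzymes detect viral nucleic acid or act on it. Oasl2, an oligoadenylate synthetase-like enzyme, was at 37.3, 5.33 and 13.1 CPM in the Kcnip3 KO-5xFAD libraries, 24.004, 7.94 and 14.9 CPM in those of 5xFAD and 3.76, 3.38 and 4.03 CPM in those of Kcnip3 KO, against 8.40, 6.59 and 7.21 CPM in WT. All Kcnip3 KO libraries were below all WT libraries, and 2 of the 3 libraries in each transgenic group were above WT. Eif2ak2, the kinase PKR that halts translation in the presence of double-stranded RNA, was at 10.5, 3.33 and 5.65 CPM in the Kcnip3 KO-5xFAD libraries, 5.21, 3.69 and 4.07 CPM in those of 5xFAD and 5.02, 5.07 and 2.99 CPM in those of Kcnip3 KO, against 4.15, 1.70 and 4.28 CPM in WT. In Kcnip3 KO, 2 of 3 libraries were above every WT library. Oas1a (0.121 to 8.09 CPM), Oas2, Oasl1, Zbp1, Ifih1 and Dhx58 were at most 8.09 CPM in every library, and Oas1a shares 57.6% of its 50-base words with its close copy Oas1g, so its level is uncertain.

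The 8 antiviral effectors act on viral entry, replication or release. Mx1, a dynamin-like GTPase that traps viral particles, was at 3.99, 0 and 1.96 CPM in the Kcnip3 KO-5xFAD libraries, 1.27, 0.709 and 1.81 CPM in those of 5xFAD and 0.209, 0 and 0.115 CPM in those of Kcnip3 KO, against 1.81, 0.532 and 0.627 CPM in WT. That is 3 reads in all over the 3 Kcnip3 KO libraries and 28 over WT, a ratio of 0.115 with an exact 95% counting interval of 0.0223 to 0.371. The interval covers counting error and not the spread between libraries, and 17 of the 28 reads were in WT 1. Mx2, its paralog, was at 4.66, 0.445 and 2.33 CPM in the Kcnip3 KO-5xFAD libraries, 2.67, 1.70 and 2.44 CPM in those of 5xFAD and 0.523, 1.09 and 0.691 CPM in those of Kcnip3 KO, against 2.45, 1.81 and 1.25 CPM in WT. Both genes were lower in every Kcnip3 KO library than in any WT library. The annotation lists Mx2 as a polymorphic pseudogene and not as protein-coding. Rsad2, which encodes viperin, was at 4.44, 1.11 and 1.96 CPM in the Kcnip3 KO-5xFAD libraries, 3.30, 0.993 and 1.72 CPM in those of 5xFAD and 1.46, 0.121 and 0.460 CPM in those of Kcnip3 KO, against 2.66, 1.38 and 1.36 CPM in WT. Kcnip3 KO 1 reached the WT range for Rsad2 and the other Kcnip3 KO libraries did not. Bst2, or tetherin, which holds budding virus at the cell surface, was at 37.8, 7.89 and 23.9 CPM in the Kcnip3 KO-5xFAD libraries, 24.6, 17.02 and 24.6 CPM in those of 5xFAD and 7.21, 4.71 and 7.48 CPM in those of Kcnip3 KO, against 10.1, 9.996 and 7.10 CPM in WT. Ifitm3, which blocks viral entry from endosomes, was at 56.6, 17.7 and 28.5 CPM in the Kcnip3 KO-5xFAD libraries, 38.6, 24.5 and 35.7 CPM in those of 5xFAD and 12.9, 11.96 and 16.1 CPM in those of Kcnip3 KO, against 20.1, 19.7 and 14.8 CPM in WT. For both, all 5xFAD libraries were above all WT libraries, and all Kcnip3 KO-5xFAD libraries above all Kcnip3 KO libraries, also the one labelled Kcnip3 KO-5xFAD 2. Samd9l, a restrictor of viral and cellular growth, was at 6.87, 3.0004 and 5.65 CPM in the Kcnip3 KO-5xFAD libraries, 2.54, 2.13 and 3.35 CPM in those of 5xFAD and 3.45, 2.42 and 2.88 CPM in those of Kcnip3 KO, against 5.96, 2.98 and 4.70 CPM in WT. In 5xFAD, libraries 1 and 2 were below every WT library, and the highest of the 12 was Kcnip3 KO-5xFAD 1. Cmpk2, a mitochondrial nucleotide kinase, stayed between 13.05 and 19.04 CPM, and Rtp4 ranged from 1.69 to 10.9 CPM.

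**Figure D2:**
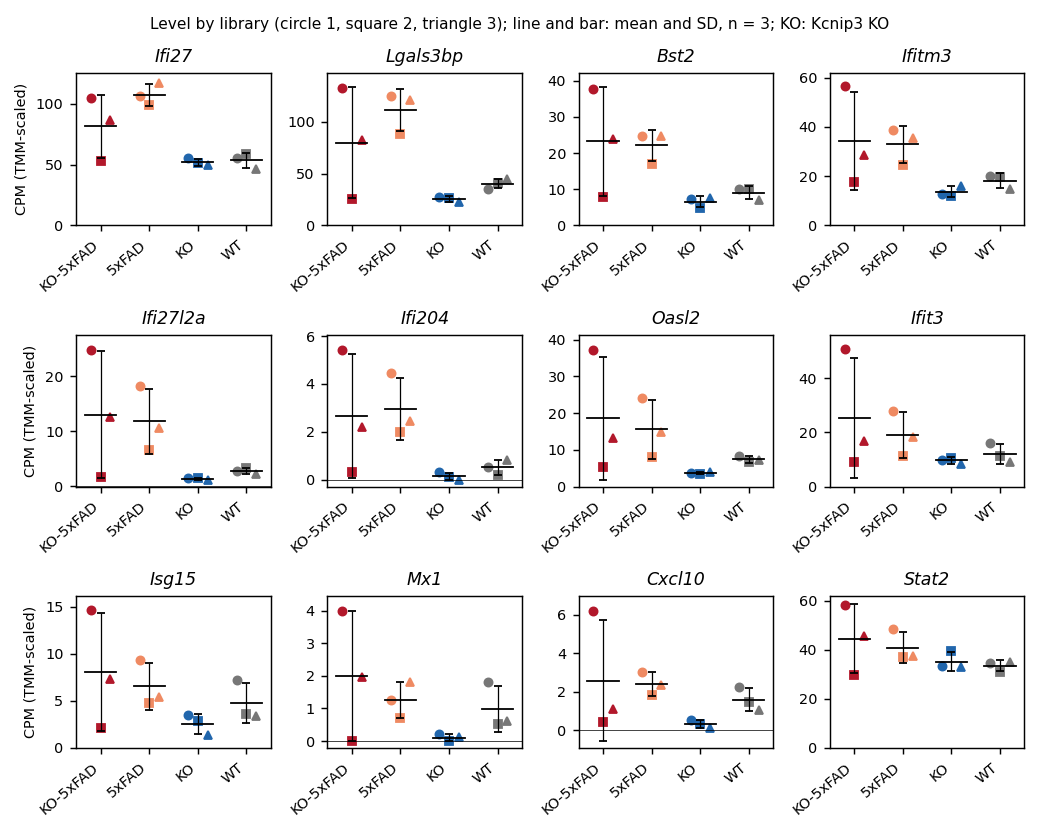
Each panel shows 1 member, with TMM-scaled CPM on the y axis from 0 and the 4 groups on the x axis; symbols mark the libraries 1, 2 and 3, and the line and bar give the mean and SD (n = 3). Library 1 (circle) is the highest and library 2 (square) the lowest of the Kcnip3 KO-5xFAD libraries in all 12 panels, and Ifi27 in 5xFAD lies between 98.7 and 117 CPM, above every WT library.

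Interferon-induced GTPases of the GBP and IRG families attack the vacuoles of intracellular pathogens. Irgm1, a regulator of the IRG proteins, was at 25.9, 8.78 and 13.997 CPM in the Kcnip3 KO-5xFAD libraries, 20.96, 12.6 and 17.4 CPM in those of 5xFAD and 9.20, 7.25 and 14.8 CPM in those of Kcnip3 KO, against 12.7, 9.04 and 11.6 CPM in WT. Gbp7 was at 3.33, 1.33 and 1.60 CPM in the Kcnip3 KO-5xFAD libraries, 1.40, 0.851 and 0.724 CPM in those of 5xFAD and 1.15, 0.725 and 0.806 CPM in those of Kcnip3 KO, against 1.28, 2.13 and 1.25 CPM in WT. Libraries 5xFAD 2 and 3 were below every WT library, and every Kcnip3 KO library was below every WT library. Gbp2, Gbp3 and Igtp peaked in Kcnip3 KO-5xFAD 1 or 5xFAD 1 at 12.3 to 16.3 CPM.

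The secreted members were Cxcl10, a chemokine that attracts T cells, and Lgals3bp, a glycoprotein that binds galectins. Cxcl10 was at 6.21, 0.445 and 1.11 CPM in the Kcnip3 KO-5xFAD libraries, 3.05, 1.84 and 2.35 CPM in those of 5xFAD and 0.523, 0.362 and 0.115 CPM in those of Kcnip3 KO, against 2.23, 1.49 and 1.04 CPM in WT. The Kcnip3 KO libraries did not overlap with WT, but held only 5, 3 and 1 reads of Cxcl10. Lgals3bp was at 133, 25.003 and 82.1 CPM in the Kcnip3 KO-5xFAD libraries, 125, 87.8 and 121 CPM in those of 5xFAD and 27.4, 26.3 and 22.2 CPM in those of Kcnip3 KO, against 35.4, 40.7 and 44.6 CPM in WT. The 5xFAD libraries were all above the WT libraries, and only the library labelled Kcnip3 KO-5xFAD 2 of its group was at the Kcnip3 KO level.

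The remaining members have other or less settled roles. Ifi27, a small mitochondrial protein, was at 104, 53.2 and 86.2 CPM in the Kcnip3 KO-5xFAD libraries, 107, 98.7 and 117 CPM in those of 5xFAD and 55.2, 51.2 and 49.6 CPM in those of Kcnip3 KO, against 55.3, 58.4 and 46.7 CPM in WT. The 5xFAD libraries were all above WT, Kcnip3 KO and WT overlapped, and the spread in 5xFAD was small beside the difference. Ifi27l2a, a relative encoded next to it on chromosome 12, was at 24.8, 1.67 and 12.6 CPM in the Kcnip3 KO-5xFAD libraries, 18.3, 6.66 and 10.7 CPM in those of 5xFAD and 1.46, 1.45 and 1.15 CPM in those of Kcnip3 KO, against 2.76, 3.40 and 2.19 CPM in WT. Ifi204, a DNA sensor of the PYHIN family, was at 5.43, 0.333 and 2.21 CPM in the Kcnip3 KO-5xFAD libraries, 4.45, 1.99 and 2.44 CPM in those of 5xFAD and 0.314, 0.121 and 0 CPM in those of Kcnip3 KO, against 0.532, 0.213 and 0.836 CPM in WT. Ifi204 was at or below the level of 3 reads in every Kcnip3 KO library, and both genes were above WT in every 5xFAD library, but Ifi204 shares 20.0% of its 50-base words with relatives such as Ifi211. Xaf1, which promotes cell death, was at 14.9, 5.56 and 9.33 CPM in the Kcnip3 KO-5xFAD libraries, 13.2, 8.22 and 9.78 CPM in those of 5xFAD and 4.08, 5.80 and 4.14 CPM in those of Kcnip3 KO, against 6.81, 6.17 and 4.60 CPM in WT. Ifi44 was at 7.10, 0.445 and 1.47 CPM in the Kcnip3 KO-5xFAD libraries, 1.02, 0.142 and 0.634 CPM in those of 5xFAD and 0.314, 0.362 and 0.115 CPM in those of Kcnip3 KO, against 2.02, 0.213 and 0.313 CPM in WT. Its level reached 7.10 CPM in Kcnip3 KO-5xFAD 1 and 2.02 CPM in WT 1 and was at most 1.47 CPM elsewhere. The other 6, Ifi35, Trim30a, Parp14, Sp100, Slfn2 and Slfn5, lay between 1.15 and 13.4 CPM. Ifi35 overlaps the gene Gm11626 on the other strand over 16.8% of its exons, and the strand setting of the counting is not given.

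In the presence of Kcnip3, most members had a higher mean in 5xFAD than in WT, and 1 was called. Of the 44, 37 had a higher and 7 a lower mean in 5xFAD than in WT, with a median log2 fold change of 0.61, against 0.014 over all genes tested. Ifi27 rose: it averaged 107 ± 9.12 CPM in 5xFAD and 53.5 ± 6.06 CPM in WT (SD, n = 3 each), a log2 fold change of 1.01 ± 0.19 (SE, adjusted p = 0.0233) by edgeR's quasi-likelihood test. It was the 1 member called, where 3.53% of all genes were called in either direction. The next by p-value had log2 fold changes of 2.45 ± 0.80 (SE, adjusted p = 0.0914) for Ifi204, 1.47 ± 0.46 (SE, adjusted p = 0.0939) for Lgals3bp, 1.29 ± 0.44 (SE, adjusted p = 0.109) for Bst2 and 0.83 ± 0.31 (SE, adjusted p = 0.122) for Xaf1, none of which passed the threshold of 0.05.

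In 9 members (Stat2, Bst2, Ifitm3, Lgals3bp, Ifi27, Ifi27l2a, Ifi35, Xaf1 and Ifi204) every 5xFAD library was above every WT library, against 13.7% of all genes. The share of members with an unadjusted p under 0.05 in either direction was 22.7% (10 of 44), beside 25.3% of all genes. By that undirected count the members did not exceed the background of this comparison. By direction they differed from it: 9 of the 10 members were higher in 5xFAD and 1 was lower. Of all 15905 genes, 1979 were higher and 2051 lower with such a p-value. By role, the medians were 1.04 for the sensors and OAS enzymes (8 of 8 higher), 1.04 for the secreted proteins (2 of 2), 0.67 for the other members (9 of 11), 0.46 for the ISG15 system (2 of 3), 0.54 for the signalling factors (3 of 3), 0.34 for the IFIT proteins (3 of 4), 0.36 for the antiviral effectors (6 of 8) and 0.35 for the GTPases (4 of 5). The 2 most negative log2 fold changes of the 44 were -0.74 ± 0.34 (SE, adjusted p = 0.186) for Samd9l and -0.66 ± 0.44 (SE, adjusted p = 0.362) for Gbp7.

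The call on Ifi27 was lost when WT 1, the library labelled WT 3, 5xFAD 2 or 5xFAD 3 was left out (log2 fold changes of 0.92 to 1.06), and the number of genes called among all ranged from 1 to 939 higher and 0 to 1178 lower over the 12 leave-outs. The median over members was 0.32 without 5xFAD 1. Without the library labelled Kcnip3 KO-5xFAD 2, 5 members were called, where 2.45% of genes were called higher. Without both discordant libraries, Bst2 (log2 fold change 1.14, adjusted p = 0.0424), Lgals3bp (1.55, adjusted p = 0.00207) and Ifi27 (0.92, adjusted p = 0.00118) rose, 3 members where 1.22% of all genes were called higher. The median over members was then 0.57. With only the 5xFAD and WT libraries in the fit 6 members were called, where 1.73% of genes were, and without the low-count filter 16, where 3.57% were. DESeq2 called 3 of the 33 members to which it gave an adjusted p (Bst2, Ifi27 and Lgals3bp), where 4.72% of genes were called higher.

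The 5xFAD effect in the absence of Kcnip3 had a larger median and no call. All members but Herc6 had a higher mean in Kcnip3 KO-5xFAD than in Kcnip3 KO (43 of 44), with a median log2 fold change of 1.27, against -0.00089 over all genes tested. No member passed the threshold, and 0.0% of all genes were called in this comparison, with the smallest adjusted p of any gene at 0.154. Unadjusted p-values under 0.05 were found for 32 of 44 members (72.7%), beside 10.4% of all genes. Ifi204 averaged 2.66 ± 2.58 CPM in Kcnip3 KO-5xFAD and 0.145 ± 0.158 CPM in Kcnip3 KO (SD, n = 3 each), a log2 fold change of 4.03 ± 1.02 (SE, adjusted p = 0.251). Bst2 averaged 23.2 ± 14.97 CPM in Kcnip3 KO-5xFAD and 6.47 ± 1.53 CPM in Kcnip3 KO (SD, n = 3 each), a log2 fold change of 1.84 ± 0.46 (SE, adjusted p = 0.251). The log2 fold change was 3.25 ± 0.82 (SE, adjusted p = 0.264) for Ifi27l2a, 1.33 ± 0.36 (SE, adjusted p = 0.280) for Ifitm3 and 0.64 ± 0.19 (SE, adjusted p = 0.282) for Ifi27.

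In 10 members (Usp18, Dhx58, Oasl2, Bst2, Ifitm3, Rtp4, Gbp7, Ifi27l2a, Ifi44 and Ifi204) every Kcnip3 KO-5xFAD library was above every Kcnip3 KO library, against 8.37% of all genes, even with the library labelled Kcnip3 KO-5xFAD 2 included. Mx1 had 52 reads in Kcnip3 KO-5xFAD and 3 in Kcnip3 KO, a ratio of 17.6 with an exact 95% counting interval of 5.69 to 88.0, all 52 from 2 libraries. That interval, too, leaves out the spread between libraries. By role, the medians were 2.28 for the secreted proteins, 1.70 for the antiviral effectors, 1.63 for the ISG15 system, 1.39 for the sensors and OAS enzymes, 1.34 for the IFIT proteins, 1.21 for the other members, 0.97 for the GTPases and 0.74 for the signalling factors.

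The number of calls moved with the libraries in the fit. The library labelled Kcnip3 KO-5xFAD 2 was singled out by its low Thy1, Trem2 and Cst7. It was also the lowest of its group for 43 of the 44 members. Leaving it out thus removed the group's low values, so the added calls are not independent of that choice. Without the library labelled Kcnip3 KO-5xFAD 2, 17 members rose, where 1.17% of all genes were called higher, and without it and the one labelled WT 3 the number was 16 (Bst2, Cxcl10, Ifi204, Ifi27, Ifi27l2a, Ifitm3, Isg15, Lgals3bp, Mx1, Mx2, Oasl2, Parp14, Rtp4, Trim30a, Usp18 and Xaf1), where 1.29% of all genes were called higher. In that second fit the log2 fold change was 2.25 (adjusted p = 0.000212) for Bst2, 3.78 (adjusted p = 0.000653) for Ifi27l2a and 2.09 (adjusted p = 0.0445) for Isg15, and all 44 members were higher with a median of 1.64. With the library labelled Kcnip3 KO 3 left out as well, 7 members were called, where 0.976% of genes were called higher. With all 12 libraries, the fit without the low-count filter called 31 members (1.32% of genes) and DESeq2 called 5, Bst2, Ifi204, Ifi27l2a, Ifitm3 and Oasl2 (0.672% of genes). Leaving out Kcnip3 KO-5xFAD 1 gave a median of 0.68 and no call.

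**Figure D3:**
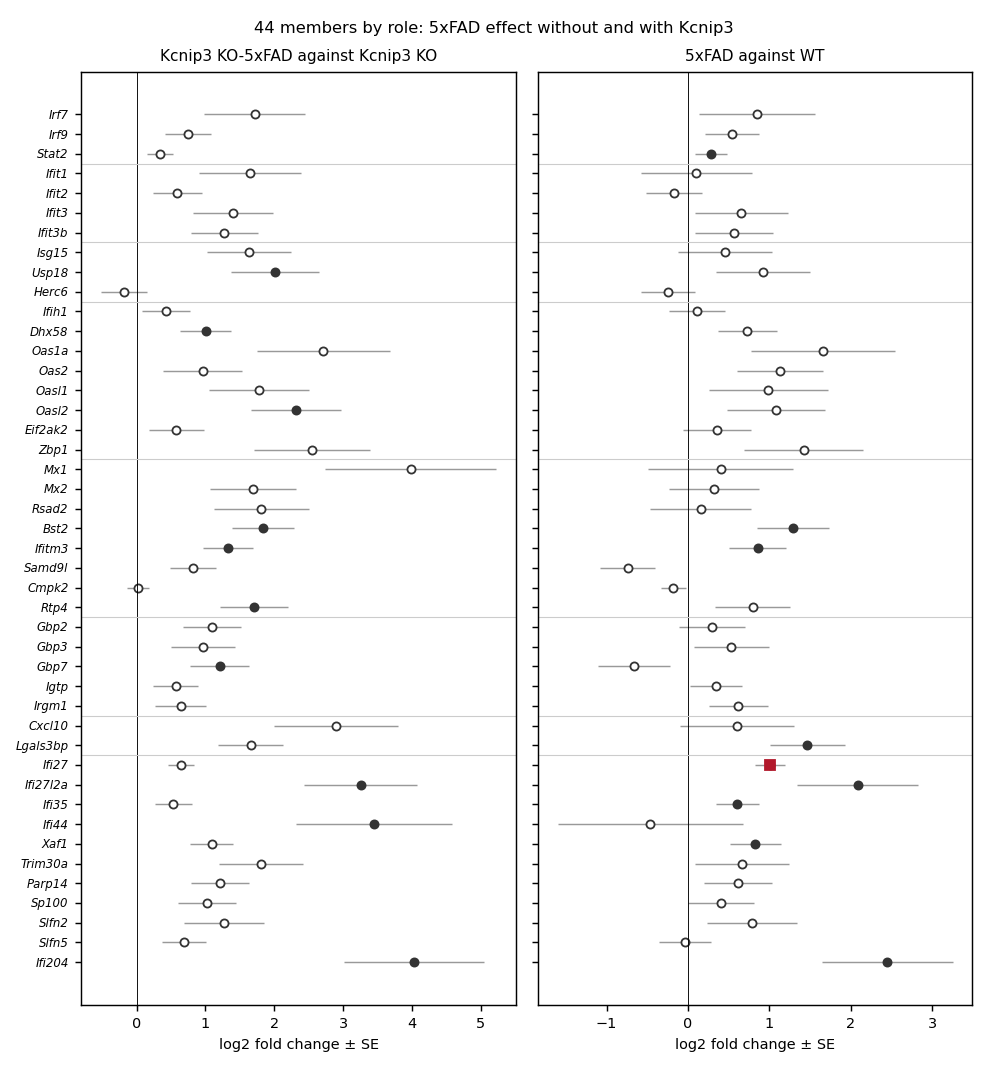
Log2 fold change ± SE (x axis) of the 44 members, grouped by role from top to bottom, for Kcnip3 KO-5xFAD against Kcnip3 KO (left) and 5xFAD against WT (right); filled circles mark members whose groups do not overlap, and the red square marks Ifi27, the 1 member called. The left panel has 43 of 44 points above 0 and the right panel 37 of 44.

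Microglial markers moved with the transgene as well. Summed over 6 markers they were at 696, 344 and 547 CPM in the Kcnip3 KO-5xFAD libraries, 654, 745 and 637 CPM in those of 5xFAD and 298, 316 and 334 CPM in those of Kcnip3 KO, against 296, 286 and 419 CPM in WT, and 5 of the 6 rose in 5xFAD against WT by edgeR's quasi-likelihood test. All 6 microglial markers were higher in mean in Kcnip3 KO-5xFAD than in Kcnip3 KO (median log2 fold change 0.69), with no call. In Kcnip3 KO-5xFAD against 5xFAD, 5 of them were lower and 1 higher (-0.30), with no call. Their interaction median was -0.26, with 0 of 6 above 0. Summed astrocyte markers were at 1258 to 3688 CPM in Kcnip3 KO-5xFAD and 2945 to 3362 CPM in 5xFAD, against 1049 to 1495 CPM in Kcnip3 KO and 1001 to 1625 CPM in WT. None of the 5 astrocyte markers was called in 5xFAD against WT, with 3 higher and 2 lower. Gfap, the intermediate filament of reactive astrocytes, was at 2189, 2719 and 2360.0 CPM in the 5xFAD libraries, against 427, 375 and 896 CPM in WT (adjusted p = 0.0745), while the log2 fold changes of Slc1a3 and Gja1 were -0.011 and -0.43. Endothelial markers ranged from 194 to 285 CPM, border macrophage markers from 3.55 to 21.2 CPM, T and NK cell markers from 2.22 to 7.87 CPM and B cell markers from 0.284 to 1.33 CPM over the 12 libraries. All 6 border macrophage markers were lower in mean in 5xFAD than in WT (median log2 fold change -0.69), with no call. In Kcnip3 KO-5xFAD against Kcnip3 KO, 3 of them were higher and 3 lower. Choroid plexus markers ranged from 101 to 8963 CPM and overlapped between the groups, yet their means shifted together, with no call. All 5 were higher in 5xFAD than in WT (median log2 fold change 1.06) and in Kcnip3 KO than in WT (0.66). All 5 were lower in Kcnip3 KO-5xFAD than in Kcnip3 KO (-0.95) and than in 5xFAD (-1.08), with an interaction median of -1.85. The 5 blood markers were at 89.6 to 240.4 CPM in Kcnip3 KO-5xFAD and 74.9 to 151 CPM in Kcnip3 KO, with 5 of 5 higher in mean, a median log2 fold change of 0.34 and no call. In 5xFAD against WT, 4 of the 5 blood markers were lower in mean and 1 higher (median log2 fold change -0.36), with no call. Their part in the members' levels was not tested.

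The baseline comparison of Kcnip3 KO with WT gave lower means for nearly all members and no call. Of the 44, 42 had a lower mean in Kcnip3 KO, the exceptions being Eif2ak2 and Stat2, with a median log2 fold change of -0.45, against 0.0016 over all genes tested. None passed the threshold by edgeR's quasi-likelihood test, where 0.0503% of all genes were called, and DESeq2 called 0 as well. Unadjusted p-values under 0.05 were found for 2 members (4.55%), beside 4.51% of all genes. These were Cxcl10, which averaged 0.333 ± 0.205 CPM in Kcnip3 KO and 1.59 ± 0.601 CPM in WT (SD, n = 3 each) with a log2 fold change of -2.18 ± 0.94 (SE, adjusted p = 0.999), and Mx1, with one of -2.98 ± 1.36 (SE, adjusted p = 0.999). The log2 fold change was -1.26 ± 0.64 (SE, adjusted p = 0.999) for Mx2, -0.63 ± 0.33 (SE, adjusted p = 0.999) for Samd9l and -1.33 ± 0.71 (SE, adjusted p = 0.999) for Rsad2.

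In 10 members (Ifit1, Usp18, Oasl2, Mx1, Mx2, Rtp4, Gbp7, Cxcl10, Lgals3bp and Ifi27l2a) every Kcnip3 KO library was below every WT library, against 4.89% of all genes. Medians by role were -1.43 for the secreted proteins, -0.88 for the ISG15 system, -0.72 for the antiviral effectors, -0.38 for the IFIT proteins, -0.49 for the other members, -0.35 for the sensors and OAS enzymes, -0.33 for the GTPases and -0.013 for the signalling factors. Summed microglial markers overlapped between these groups, at 298 to 334 CPM in Kcnip3 KO and 286 to 419 CPM in WT. The blood markers were at 74.9 to 151 CPM in Kcnip3 KO and 117 to 167 CPM in WT, with 5 of 5 lower in mean, a median log2 fold change of -0.37 and no call. The border macrophage markers were at 10.2 to 12.02 CPM in Kcnip3 KO and 10.2 to 21.2 CPM in WT, with 6 of 6 lower in mean, a median log2 fold change of -0.26 and no call. The part of these cell types in the members' levels was not tested. Without the discordant libraries the median was -0.60 with no call, and without WT 1 it was -0.21. The counts above include the library labelled Kcnip3 KO 3, whose Kcnip3 was at 125 CPM. Without that library the median was -0.56, with 40 of 44 lower and no call. With the discordant libraries left out as well it was -0.56, with 38 lower and no call. Without the low-count filter 5 members were called lower (Cxcl10, Ifit1, Lgals3bp, Mx1 and Oasl2), where 0.381% of genes were.

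**Figure D4:**
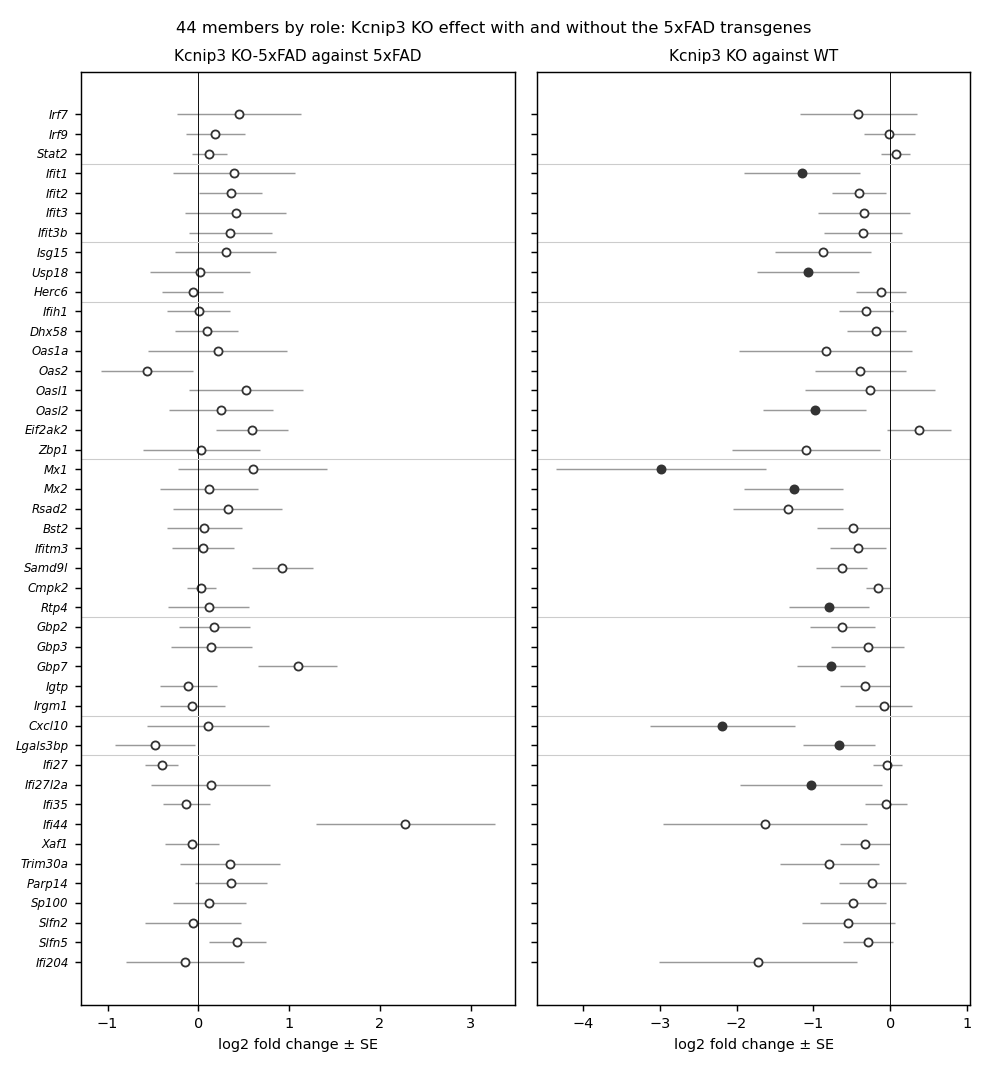
Log2 fold change ± SE (x axis) of the 44 members, grouped by role from top to bottom, for Kcnip3 KO-5xFAD against 5xFAD (left) and Kcnip3 KO against WT (right); filled circles mark members whose groups do not overlap. The right panel has 42 of 44 points below 0 and 10 filled circles, the left panel has 34 of 44 above 0 and none filled.

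On the 5xFAD background, the values of Kcnip3 KO-5xFAD and 5xFAD overlapped for every member. Of the 44, 34 had a higher and 10 a lower mean in Kcnip3 KO-5xFAD than in 5xFAD, with a median log2 fold change of 0.13, against -0.0042 over all genes. None was called by edgeR's quasi-likelihood test, where 0.0692% of genes were, or by DESeq2. An unadjusted p under 0.05 was found for 4 of 44 members (9.09%), beside 10.4% of all genes. In none did the groups separate, where 9.05% of all genes were higher without overlap and 7.29% lower. Samd9l averaged 5.17 ± 1.98 CPM in Kcnip3 KO-5xFAD and 2.67 ± 0.622 CPM in 5xFAD (SD, n = 3 each), a log2 fold change of 0.93 ± 0.34 (SE, adjusted p = 0.438). The log2 fold change was 1.09 ± 0.43 (SE, adjusted p = 0.445) for Gbp7, 2.28 ± 0.99 (SE, adjusted p = 0.466) for Ifi44, -0.40 ± 0.18 (SE, adjusted p = 0.477) for Ifi27 and 0.59 ± 0.40 (SE, adjusted p = 0.606) for Eif2ak2. Without the low-count filter Ifi44 was called higher and Lgals3bp lower, where 200 of 31787 genes were called higher and 151 lower. The sign of the median depended on single libraries: it was -0.48, with 40 of 44 lower, without Kcnip3 KO-5xFAD 1, -0.055 without 5xFAD 2, 0.44 without 5xFAD 1, and 0.51, with 41 of 44 higher, without the discordant libraries.

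The interaction term tests whether the 5xFAD effect differed with and without Kcnip3. Its median over the members was 0.73, with 41 of 44 above 0, against -0.014 over all genes, and no member was called by edgeR's quasi-likelihood test, where 0.0% of genes were, or by DESeq2. An unadjusted p under 0.05 was found for 4 of 44 members (9.09%), beside 5.26% of all genes. The members with the smallest p-values had log2 interaction terms of 1.56 ± 0.47 (SE, adjusted p = 0.853) for Samd9l, 1.87 ± 0.62 (SE, adjusted p = 0.853) for Gbp7, 3.91 ± 1.65 (SE, adjusted p = 0.853) for Ifi44, 3.58 ± 1.61 (SE, adjusted p = 0.853) for Mx1 and 2.29 ± 1.17 (SE, adjusted p = 0.853) for Cxcl10. Samd9l, Gbp7 and Ifi44 each had a higher mean in Kcnip3 KO-5xFAD than in Kcnip3 KO and a lower one in 5xFAD than in WT. Irgm1 had the value nearest to 0, at 0.022 ± 0.51 (SE, adjusted p = 0.996), while the term of Ifi27 was -0.36 ± 0.26 (SE, adjusted p = 0.853). Without the low-count filter 6 members were called (Cxcl10, Ifi44, Ifit1, Mx1, Oasl2 and Samd9l), where 0.453% of genes were called higher. The median was -0.021 without Kcnip3 KO-5xFAD 1, 0.47 without WT 1 and 1.16 without the discordant libraries. Each group enters 2 of the 4 pairwise comparisons, so their values are not independent of each other.

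**Figure D5:**
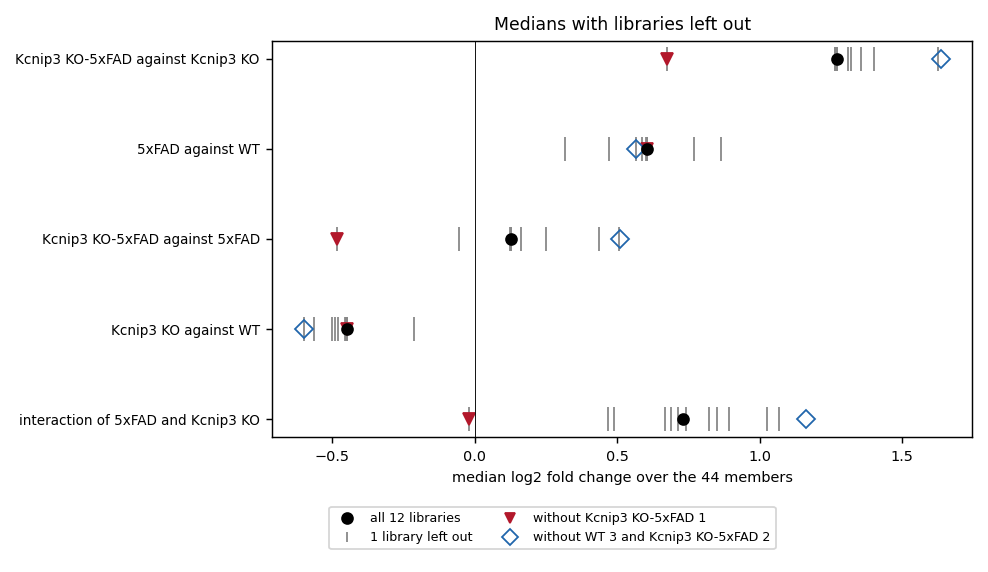
Median log2 fold change over the 44 members (x axis) in each comparison (y axis) with all 12 libraries (black circles), with 1 library left out (ticks), without Kcnip3 KO-5xFAD 1 (red triangles) and without the discordant libraries WT 3 and Kcnip3 KO-5xFAD 2 (open diamonds). Both 5xFAD effects stay above 0 and the Kcnip3 KO effect on the WT background below 0, while the median of Kcnip3 KO-5xFAD against 5xFAD runs from -0.48 to 0.51.

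Upstream of the members, the interferons themselves were hardly detected. Of 19 interferon genes in the table, 15 had no read in any library and none passed the low-count filter; Ifnb1, encoding interferon beta, had 2 reads, both in Kcnip3 KO-5xFAD 1. Ifnb1 and Ifnar1 were picked for naming after their values were seen. Of the receptors and JAK-STAT components, 16 were tested. Ptpn6, a phosphatase that restrains immune receptor signalling, was at 23.1, 7.22 and 18.1 CPM in the Kcnip3 KO-5xFAD libraries, 19.7, 20.99 and 21.5 CPM in those of 5xFAD and 4.91, 5.92 and 5.75 CPM in those of Kcnip3 KO, against 6.27, 5.74 and 9.82 CPM in WT, and it was the 1 of the 16 that rose in 5xFAD against WT (1.51 ± 0.33 SE, adjusted p = 0.0351). The receptor chain Ifnar1 was between 31.9 and 44.1 CPM in all libraries. Of 20 tested genes of nucleic acid sensing and interferon induction, Irf8, a transcription factor of microglia, rose in 5xFAD against WT (1.74 ± 0.40 SE, adjusted p = 0.0433).

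A further list of interferon-stimulated genes that are not members had medians of smaller size. Of 54 tested, 45 were higher in 5xFAD than in WT (median 0.38), 51 higher in Kcnip3 KO-5xFAD than in Kcnip3 KO (0.78), 50 lower in Kcnip3 KO than in WT (-0.27), and 24 higher in Kcnip3 KO-5xFAD than in 5xFAD (-0.026). The interaction median was 0.29, with 45 above 0. Ly6e, a membrane protein that blocks viral entry, was at 334, 284 and 274 CPM in the Kcnip3 KO-5xFAD libraries, 320.1, 452 and 342 CPM in those of 5xFAD and 197, 201 and 189.7 CPM in those of Kcnip3 KO, against 227, 258 and 223 CPM in WT, and it rose in 5xFAD against WT (0.65 ± 0.13 SE, adjusted p = 0.0247). Psmb8, a subunit of the immunoproteasome, was at 26.9, 9.22 and 21.2 CPM in the Kcnip3 KO-5xFAD libraries, 26.8, 21.98 and 22.7 CPM in those of 5xFAD and 6.69, 7.85 and 6.79 CPM in those of Kcnip3 KO, against 11.2, 11.3 and 10.1 CPM in WT, and it also rose (1.13 ± 0.28 SE, adjusted p = 0.045). For Psmb8 every Kcnip3 KO library was below every WT library. No gene of these lists was called in any of the other 4 comparisons.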

How the data were processed

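The authors deposited raw read counts per Ensembl gene and a table of log2 TPM for 16120 genes, 1 column per library. Per the submitters' processing notes, the tools were HISAT2 2.1.0 and featureCounts with mm10, besides edgeR 3.38.4 and FastQC 0.11.9. Trizol and the TruSeq mRNA kit are per the labels' protocols. Annotation release, strand setting and TPM lengths were found in no source used here.

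Symbols came from GENCODE M21, which matched 55144 of 55385 gene IDs. Counts were tested in R 4.3.3 with edgeR 4.0.16: filterByExpr by genotype, TMM scaling, a robust quasi-likelihood fit over all 12 libraries, 5 contrasts and Benjamini-Hochberg adjustment over 15905 genes, with a gene called at an adjusted p below 0.05. The common biological coefficient of variation was 0.144. CPM are TMM-scaled, and 0.5 CPM was added before logs of single libraries. On simulated counts of the same depth for 5xFAD against WT, with 200 of 15905 genes changed, 28.8% were recovered at 1.5-fold, 62.7% at 2-fold and 90.8% at 4-fold, and 9 of 129 calls were false. The simulated counts were drawn independently around a common mean per gene, without discordant libraries or shifts shared by the genes of a library. These rates thus need not hold for the members, which moved together by library. Counting intervals cover counting error only. Shared sequence was counted as the percent of a gene's 50-base exonic words found in another gene.

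The members and lists, and the omission of the libraries labelled WT 3, Kcnip3 KO-5xFAD 2 and Kcnip3 KO 3, were chosen with earlier results of these data known. Values in every library are given for members called in any contrast, the 5 with the smallest p in each contrast and the one with the highest mean CPM in each role. Alternatives were DESeq2 1.42.0, limma 3.58.1 (voom, and on log2 TPM), other scalings and filters, fits of fewer groups, a replicate block and leaving out libraries.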

Additional observations from a re-analysis of the deposited data

How the results depend on the processing

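The direction of the members' median held under every scaling, filter, tool and sample alternative in 5xFAD against WT, Kcnip3 KO-5xFAD against Kcnip3 KO and Kcnip3 KO against WT. In Kcnip3 KO-5xFAD against 5xFAD it was -0.031 with limma-voom, against 0.13. Counts of members called moved most without the low-count filter, to 16 in 5xFAD against WT and 31 in Kcnip3 KO-5xFAD against Kcnip3 KO. They were 2 in Kcnip3 KO-5xFAD against 5xFAD (Ifi44 higher, Lgals3bp lower), 5 in Kcnip3 KO against WT and 6 in the interaction. The cause was not tested. DESeq2 called 3 in 5xFAD against WT and 5 in Kcnip3 KO-5xFAD against Kcnip3 KO, and limma on log2 TPM called 0 in 5xFAD against WT (Ifi27 at 0.86), where the fit of only those groups called 6. On log2 TPM the median of all genes was -0.13 in that comparison and the members' median 0.43. Without the discordant libraries (labelled WT 3 and Kcnip3 KO-5xFAD 2) the counts were 3 in 5xFAD against WT and 16 in Kcnip3 KO-5xFAD against Kcnip3 KO, and with Kcnip3 KO 3 left out too they were 4 and 7. Leaving out 1 library at a time gave 0 to 5 calls in 5xFAD against WT and 0 to 17 in Kcnip3 KO-5xFAD against Kcnip3 KO. The median then ran from -0.48 to 0.51 in Kcnip3 KO-5xFAD against 5xFAD, from 0.68 to 1.63 in Kcnip3 KO-5xFAD against Kcnip3 KO and from -0.021 to 1.07 in the interaction. The gap between the highest and the lowest library median of the members was 1.38 to 2.00 log2 units, 1.38 without Kcnip3 KO-5xFAD 1.

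For the other pathway genes, calls in 5xFAD against WT numbered 17 without the filter and 7 at 50 counts or more in 3 libraries. They numbered 7 with DESeq2, 1 with log2 TPM and 8 with only those groups. Over all genes, the calls were 1136 higher and 995 lower of 31787 without the filter, and 368 and 349 of 12251 at 50 counts. With DESeq2 the all-gene calls were 657 and 762 of 13913, and with log2 TPM 80 and 158 of 16120. With only those groups they were 264 and 119 of 15296. In Kcnip3 KO-5xFAD against Kcnip3 KO, calls on the pathway genes numbered 27 without the filter (all genes: 419 higher and 302 lower of 31787). With DESeq2 they numbered 6 (all genes: 110 and 23 of 16375). In Kcnip3 KO-5xFAD against 5xFAD they numbered 2 without the filter (all genes: 200 and 151 of 31787). The number of pathway genes tested in each setting is not given, so these counts were not set against a share of them. Replicate numbers did not pair the libraries: same-numbered libraries correlated at -0.320 to 0.246 in their deviations from group means, above 0.1 in 6 of 18 pairs, and 3 of 12 libraries correlated best with their own number. With a replicate block, 3 members were called in 5xFAD against WT, while the calls over all genes numbered 632 higher and 602 lower, against 304 and 258 without it. Of 550 values of single genes under alternatives, 496 kept their direction and side of the threshold, 49 passed it newly and 5, all of Ifi27, no longer did. Mx1, Ifi204, Ifi44, Zbp1 and Oasl1, at or under the level of 3 reads in several libraries, are limited by depth. So is Cxcl10 in the Kcnip3 KO libraries, with 5, 3 and 1 reads.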
